A study of Mus musculus with 4 samples.

Results

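Myostatin and activin signalling genes were examined in the gastrocnemius muscle of mice. The group held 10 genes, chosen by gene symbol, among 23282 gene rows measured in each library. They were the ligands Mstn, Gdf11 and Inhba, the binding proteins Fst, Fstl1 and Fstl3, the type II receptors Acvr2a and Acvr2b, and the signal transducers Smad3 and Smad7. All 10 had a single row in the files, and all 10 had reads in at least 1 library.

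The study crossed high-intensity treadmill exercise (E) with a tumor (T). CT26 cells, a colorectal cancer line of the mouse, had been given to the tumor groups through the tail vein. There were 4 libraries, 1 per group according to the labels: normal control (E-T-, neither exercise nor tumor), normal exercise (E+T-, exercise only), cancer control (E-T+, tumor only) and cancer exercise (E+T+, both). All groups were of the CDF1 strain, and the labels give the age as postnatal day 28 and 10 mice per group. By the methods, that was the age at purchase. Tissue was taken at the end of the experiment, so the mice were older by then. The mice were male according to the methods. The tumor is a transplanted, blood-borne one that spreads through the body and not a tumor of the muscle. The results text of the paper describes a representative mouse per group, so whether a library holds 1 animal or several was not settled.

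Myostatin, encoded by Mstn, is a secreted factor made by muscle fibers that restrains muscle growth, and loss of it gives enlarged muscles. Myostatin, its close relative Gdf11 and the activins bind the type II receptors Acvr2a and Acvr2b, which recruit a type I receptor and lead to phosphorylation of Smad2 and Smad3. Follistatin (Fst) and its relative Fstl3 capture these ligands outside the cell, while Smad7 is an inhibitory Smad that blocks the receptors from within. Activin A, a dimer of the Inhba product, is known as a driver of muscle wasting in tumor models.

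The promoters of the 3 ligand genes are shown because these genes differed from each other across the libraries. Each is the 250 bases before the transcription start, from RefSeq on GRCm38.p6, which is the mm10 build of the labels, and capitals mark the motif CANNTG, an E-box, the kind of site that myogenic factors can bind. The promoter table held 8 of the 10 genes, and Fst and Smad7 were not among them.
Mstn, plus strand, chr1:53061390-53061639: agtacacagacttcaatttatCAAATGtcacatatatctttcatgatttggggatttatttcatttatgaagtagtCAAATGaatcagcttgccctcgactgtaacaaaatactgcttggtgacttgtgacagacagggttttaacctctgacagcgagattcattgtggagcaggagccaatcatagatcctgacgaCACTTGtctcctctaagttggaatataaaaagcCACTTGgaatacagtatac
Gdf11, minus strand, chr10:128891719-128891968: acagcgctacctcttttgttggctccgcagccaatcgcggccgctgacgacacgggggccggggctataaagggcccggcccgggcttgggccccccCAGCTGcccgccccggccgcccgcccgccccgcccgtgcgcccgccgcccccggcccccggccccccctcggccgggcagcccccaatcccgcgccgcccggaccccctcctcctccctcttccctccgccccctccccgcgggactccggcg
Inhba, plus strand, chr13:16011601-16011850: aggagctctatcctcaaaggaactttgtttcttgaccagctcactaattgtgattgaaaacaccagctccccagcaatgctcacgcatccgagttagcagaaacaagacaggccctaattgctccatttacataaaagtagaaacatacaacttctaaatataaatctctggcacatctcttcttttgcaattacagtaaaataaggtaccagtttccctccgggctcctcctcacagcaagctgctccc
The Mstn window held 4 matches of CANNTG, the Gdf11 window 1 and the Inhba window 0, and 66.2% of 32851 promoter windows of this length held at least 1. Mstn and Inhba were low in G and C (38.4% and 43.2%), whereas Gdf11 had 81.2%. The letters TATAAA, on either strand, occurred once in each of the 3 windows and in 12.4% of all windows. The letters AGAC or its reverse complement GTCT, the core of Smad binding sites, occurred 3 times for Mstn, 0 times for Gdf11 and once for Inhba, and in 82.9% of all windows. These matches describe the letters and not bound sites.

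Gene expression was measured by 3′ mRNA sequencing, in which a transcript gives reads from its 3′ end, so that reads do not scale with transcript length and levels of different genes can be set side by side. Values are given as normalized read counts, that is, the deposited log2 values turned back to the linear scale, and as whole reads rebuilt from them. Total reads ranged from 10647347 in cancer control to 13226033 in normal exercise, so that 3 reads, the floor of this work, were between 2.27e-05% and 2.82e-05% of a library. Muscle fiber genes identified the tissue in every library: the 10 myofiber markers, Acta1, Ckm and Myh4 among them, had reads in all 4. Cancer control stood apart, because all 9 epidermal markers had reads there while 5 of the 9 in both libraries without a tumor and 6 in cancer exercise had 0. Their summed normalized read count was 792 in cancer control and between 94.6 and 212 in the others, and their part in the results was not tested. The comparisons of normal exercise with normal control and of cancer exercise with normal exercise do not use that library. None of the differences has a replicate check, since each group had 1 library, and every interval given is a 95% interval of counting error only.

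Mstn (chr1:53061640-53068079) was high in normal control and cancer exercise and low in the other libraries. It had 395 reads in the normal control library and 220 in normal exercise, against 194 in cancer control and 361 in the cancer exercise library. The corresponding normalized read counts were 420.1, 178, 208 and 391. The counting intervals of the higher pair of libraries did not reach those of the lower pair. Exercise without a tumor went with a log2 difference of -1.23 (interval -1.48 to -0.99), and the tumor without exercise with -1.01 (-1.27 to -0.76). With a tumor, the exercised library was higher than the unexercised by 0.91 (0.66 to 1.17), and among exercised libraries that with the tumor was higher by 1.13 (0.89 to 1.38). Thus either exercise or the tumor alone went with a level about 2-fold lower than normal control, while the library with both was close to it. Under total count scaling the tumor differences of Mstn were -0.94 without exercise and 0.97 with it, both short of 2-fold.

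The fibers that make myostatin were represented throughout. The summed normalized read count of the 10 fast fiber genes was 1597400 in normal control and 1291710 in normal exercise, against 927475 in cancer control and 987883 in the cancer exercise library. That of the 10 slow fiber genes was 10416, 17677, 31722 and 15969 in the same order. Slow fiber genes were thus lowest in normal control and highest in cancer control. Fast fiber genes did not move as one with the tumor alone: 4 lay above 0 and 6 below it, with a median log2 difference of -0.13. The part of either set in the Mstn values was not tested. The 10 adipocyte markers, which had reads in every library except for Lep in the tumor libraries, summed to 54546 in normal control and 29293 in normal exercise, against 37573 in cancer control and 45698 in the cancer exercise library. This is the order of the libraries by Mstn. Without Lpl, a lipase that muscle fibers make too and that was left out after its values were seen, the other 9 summed to 41791, 22977, 13268 and 27671, with cancer control lowest. That sum still held Fabp4, which is also on the list of endothelial markers, at 22087, 15607, 7967 and 16326. The part of adipocytes in the Mstn values was not tested. In a tissue sample, fewer cells of a type and less RNA per cell cannot be told apart.

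**Figure D1:**
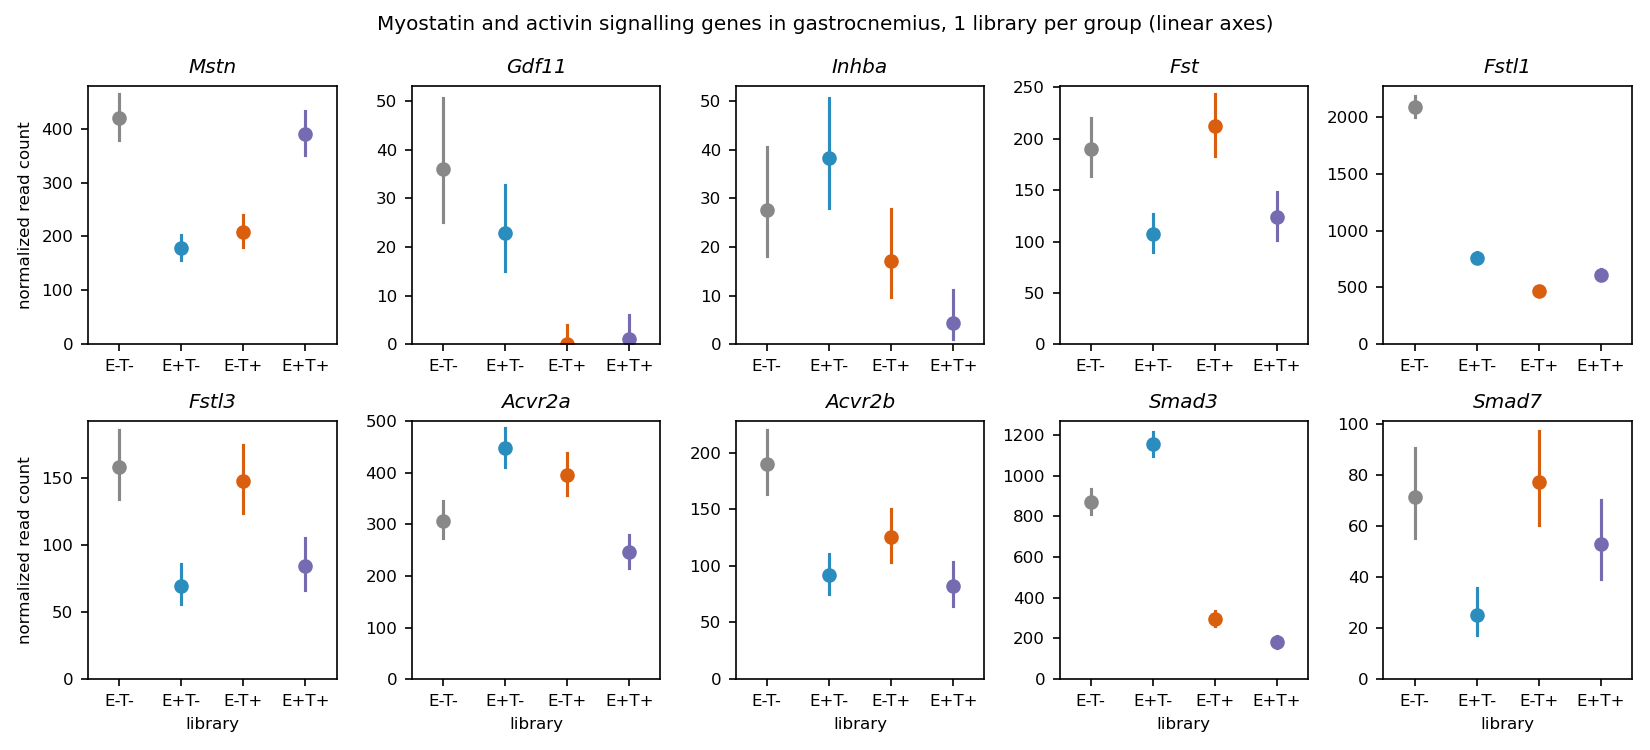
Normalized read count (y, linear axes from 0) of each of the 10 genes in the 4 libraries (x), 1 library per group. Points are the deposited values and lines 95% Poisson intervals of the reads. Mstn sits at 420.1 and 391 in E-T- and E+T+ and at 178 and 208 in E+T- and E-T+, whereas Smad3 is low in both tumor libraries.

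Gdf11 (chr10:128882295-128891718), whose mature protein is nearly that of myostatin, was scarce and close to absent with the tumor. It had 34 reads in the normal control library and 28 in normal exercise, against 0 in cancer control and 1 in the cancer exercise library. The tumor libraries were thus both below the floor of 3 reads, which is a normalized read count of 3.21 in cancer control. Against that floor, the level of Gdf11 in cancer control was lower than in normal control at least 11.3-fold. In cancer exercise the log2 difference from normal exercise was -3.47, and the ratio of the reads had an interval of -9.74 to -1.79. The exercise difference without a tumor was -0.64 (-1.45 to 0.09), within counting error. No exercise difference can be given with the tumor, where both libraries lie under the floor.

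Inhba (chr13:16011851-16031621), the gene of the activin A subunit, had 26 reads in the normal control library and 47 in normal exercise, against 16 in cancer control and 4 in the cancer exercise library. Its normalized read counts were 27.6, 38.3, 17.2 and 4.40. It was lowest with both exercise and tumor, by a log2 difference of -1.75 from cancer control (-4.02 to -0.35) and of -2.86 from normal exercise (-5.07 to -1.69). The differences of 0.46 with exercise alone (-0.26 to 1.21) and of -0.66 with the tumor alone (-1.69 to 0.26) were within counting error. An antisense gene, Gm48444, lies over the 3′ end of Inhba in the annotation, and the strand setting of the counting is not given in the sources used here.

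Of the binding proteins, Fst and the reads counted for Fstl3 shared a pattern that separated the libraries by exercise. Fst (chr13:114452290-114458951) had 179 reads in the normal control library and 132 in normal exercise, against 198 in cancer control and 114 in the cancer exercise library. Both exercised libraries were lower than both unexercised ones. The log2 difference with exercise was -0.83 without a tumor (-1.17 to -0.50) and -0.78 with it (-1.13 to -0.44), neither of them 2-fold. The tumor differences were 0.15 without exercise (-0.14 to 0.46) and 0.21 with it (-0.17 to 0.58), so that no tumor difference was detectable at this depth.

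Fstl3 (chr10:79777272-79782630) had 149 reads in the normal control library and 86 in normal exercise, against 138 in cancer control and 78 in the cancer exercise library. The exercise differences were -1.18 without a tumor (-1.58 to -0.79) and -0.80 with it (-1.23 to -0.40). These reads cannot be assigned to Fstl3 alone. The 3′ end of Prss57, a serine protease gene of neutrophils on the other strand, overlaps the last 1157 bases of Fstl3, and Prss57 had 149, 87, 138 and 78 reads in the same libraries. The counts of the 2 genes differed by 1 read in 1 library and were equal in the others, so that reads of one and of the other cannot be told apart. The summed normalized read count of the 11 neutrophil markers was 115 in normal control and 229 in normal exercise, against 4186 in cancer control and 2729 in the cancer exercise library. The part of neutrophils in the reads of Fstl3 and Prss57 was not tested.

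Fstl1 (chr16:37776873-37836514), a secreted glycoprotein of connective tissue cells that is a more distant relative of follistatin, was the most abundant of the genes in 3 of the 4 libraries. It had 1967 reads in the normal control library and 937 in normal exercise, against 435 in cancer control and 567 in the cancer exercise library. Normal control was thus far above the others, with a normalized read count of 2091 against 759.6, 466 and 614. The log2 difference was -1.46 with exercise alone (-1.58 to -1.35) and -2.16 with the tumor alone (-2.32 to -2.02). With a tumor, the exercised library was higher by 0.40 (0.22 to 0.58), and among exercised libraries that with the tumor differed by -0.31 (-0.46 to -0.15). Markers of resident fibroblasts moved with it. Their summed normalized read count over 12 genes was 51294 in normal control and 38236 in normal exercise, against 14204 in cancer control and 21504 in the cancer exercise library, the same order of libraries as that of Fstl1, and no fibroblast marker was at 0. The 10 tendon markers summed to 11851, 5416, 1574 and 4211, and Comp, Kera and Chad were at 0 reads in cancer control. Their part in the Fstl1 values was not tested.

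The 2 type II receptors did not run in parallel. Acvr2a (chr2:48814109-48903269) had 289 reads in the normal control library and 553 in normal exercise, against 370 in cancer control and 227 in the cancer exercise library. It was higher with exercise in the absence of a tumor by 0.54 on the log2 scale (0.34 to 0.75) and lower with exercise in its presence, at -0.69 (-0.93 to -0.45). Its tumor differences were 0.37 without exercise (0.14 to 0.59) and -0.86 with it (-1.10 to -0.64). None of these reached 2-fold, although under total count scaling the last one was -1.02. The last 446 bases of Acvr2a overlap the 3′ end of Orc4 on the other strand, which had 968, 1537, 882 and 710 reads. Fstl3 and Prss57, also on opposite strands, had nearly equal counts. Reads in this overlap may therefore have been counted for both genes, which was not tested.

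Acvr2b (chr9:119402118-119434995), a receptor with high affinity for myostatin, had 179 reads in the normal control library and 113 in normal exercise, against 117 in cancer control and 76 in the cancer exercise library. Normal control was highest, with a normalized read count of 190.3 against 91.5, 125 and 82.3. The log2 difference with exercise was -1.05 without a tumor (-1.41 to -0.71) and -0.60 with it (-1.04 to -0.18). The tumor alone went with -0.60 (-0.95 to -0.26), and in exercised libraries the tumor difference of -0.15 (-0.59 to 0.28) was within counting error. Under total count scaling the exercise difference without a tumor was -0.89, short of 2-fold. By these counts Acvr2b stood below Acvr2a in every library. The gap was widest in normal exercise, where their normalized read counts were 91.5 and 448. Any reads of Orc4 counted for Acvr2a would be part of that gap.

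Smad3 (chr9:63646767-63757994), the transcription factor that carries the myostatin and activin signal to the nucleus, separated the libraries by tumor. It had 819 reads in the normal control library and 1424 in normal exercise, against 276 in cancer control and 167 in the cancer exercise library. Both tumor libraries were far below both others. The log2 difference with the tumor was -1.56 without exercise (-1.76 to -1.36) and -2.67 with it (-2.91 to -2.44). Exercise went with a higher level without a tumor, by 0.41 (0.28 to 0.53), and with a lower one in its presence, at -0.71 (-0.99 to -0.43).

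Smad7, the inhibitory Smad and itself a target of the pathway, had 67 reads in the normal control library and 31 in normal exercise, against 72 in cancer control and 49 in the cancer exercise library. Normal exercise was the low library, with a normalized read count of 24.99 against 71.3, 77.1 and 53.1. The log2 difference was -1.47 with exercise alone (-2.17 to -0.87). With the tumor it was 0.11 without exercise (-0.39 to 0.62) and 1.06 with it (0.40 to 1.78), and the latter was 0.90 under total count scaling. With a tumor, the exercise difference of -0.53 (-1.09 to 0.00462) was within counting error. Smad3 and Smad7 thus differed in where they were low, Smad3 in the tumor libraries and Smad7 in normal exercise.

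A gene was counted as changed when it differed at least 2-fold between 2 libraries. It also had to reach a normalized read count of 4 in at least 1 of them. The study names these values of fold and count, but the rule gave more changed genes than the paper reports for the exercise comparisons. They were 3121 with exercise alone and 4437 with exercise in tumor-bearing mice. A minimum of 16 gave 1741 and 2966, nearer the paper's counts, so the rule here may be looser than the study's. Exercise without a tumor changed 5 of the 10 genes, all lower: Mstn, Fstl1, Fstl3, Acvr2b and Smad7. Of all genes that met the minimum, 21.5% were changed in this comparison, 12.1% in the lower direction. The median log2 difference of the 10 genes was -0.94, beside -0.01 over all 14518 genes. With Fstl3 left out, 4 of 9 were changed. No gene of the group reached 2-fold in the higher direction, where 9.44% of all genes did. Markers of some other cell types were lower in the same comparison. Of the red cell markers that met the minimum, 6 of 7 were lower (median -2.16). So were 6 of 10 tendon markers (median -1.50), 6 of 10 adipocyte markers (median -1.10) and 4 of 12 resident fibroblast markers (median -0.68). Other lists did not go this way. Higher were 4 of 10 slow fiber genes (median 0.76) and 2 of 5 neutrophil markers (median 0.58). No endothelial or macrophage marker was changed. The summed normalized read count of the 9 red cell markers was 250756 in normal control and 52579 in normal exercise, against 235531 in cancer control and 505312 in the cancer exercise library. The part of these cells in the change of the group was not tested.

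The tumor without exercise changed 4 of the 10 genes, again all lower: Mstn, Gdf11, Fstl1 and Smad3. The share over all genes was 45.1% in either direction and 24.2% lower, so that the count of members lay near that of all genes. Their median was -0.63, beside -0.04 over all genes. Mstn is at the edge of this call, at a log2 difference of -1.01, and dropped out at -0.98 under median-of-ratios scaling.

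Exercise in tumor-bearing mice changed Inhba alone, 1 of the 10, against 30.6% of all genes (15.1% lower), and 9 of the 10 met the minimum. Gdf11 did not meet it. The difference was below 0 for 7 of the 10 genes, and the median was -0.64, beside 0.005 over all genes. Both values include Gdf11, whose difference rests on 0 and 1 reads. Of the counting intervals 8 lay apart from 0, those of Mstn and Fstl1 above it. The tumor in exercised mice changed 5 of the 10, Mstn and Smad7 higher and Gdf11, Inhba and Smad3 lower, against 30.3% of all genes (13.9% higher and 16.3% lower). Under total count scaling these were 4, with 0 higher and 4 lower, since Mstn and Smad7 dropped below 2-fold and Acvr2a passed it. The comparisons share libraries in pairs, normal control or cancer control among them, so the calls of one are not independent of those of another.

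**Figure D2:**
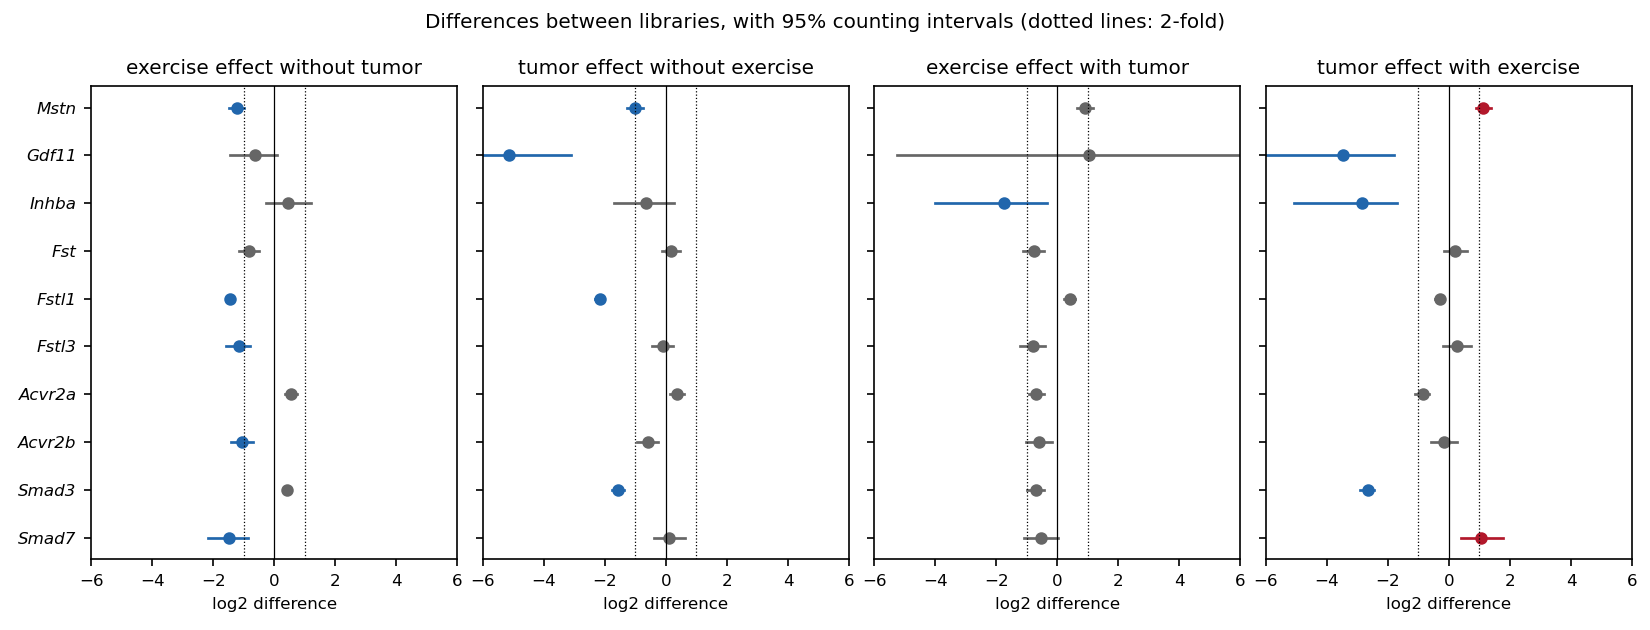
Log2 difference (x) of each of the 10 genes (y) in the 4 comparisons, with 95% Clopper-Pearson intervals of the reads, cut at the edge of the panels. Blue points are lower and red points higher by at least 2-fold with the minimum met, gray points are the rest, and dotted lines mark 2-fold. Blue points number 5, 4, 1 and 3 from left to right, and red points occur in the last panel, for Mstn and Smad7.

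The exercise differences with and without a tumor share no library. For Mstn the former minus the latter was 2.14 on the log2 scale, with an interval of 1.80 to 2.50. For Fstl1 it was 1.86 (1.65 to 2.08), while for Acvr2a it was -1.23 (-1.56 to -0.91) and for Smad3 -1.11 (-1.43 to -0.81). In these 4 genes the 2 exercise differences had opposite signs with both intervals apart from 0. The share of all genes that meet both conditions was not computed. Fst, Fstl3 and Acvr2b were lower with exercise in both settings, for Fstl3 by reads that cannot be told apart from those of Prss57. The difference between settings was 0.05 for Fst (-0.43 to 0.53), 0.38 for Fstl3 (-0.20 to 0.95) and 0.45 for Acvr2b (-0.11 to 1.004). Smad7 was 0.95 (0.12 to 1.82) and Inhba -2.21 (-4.62 to -0.66). Opposite signs were common among all genes too. They were found for 6 of the 10 members and for 51.6% of the 12055 genes whose normalized read counts averaged 16 or more. Gdf11, 1 of the 6, fell below that average and had 0 and 1 reads in the tumor libraries. A difference as large as that of Mstn, in either direction, was seen in 7.76% of the 12055 genes.

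**Figure D3:**
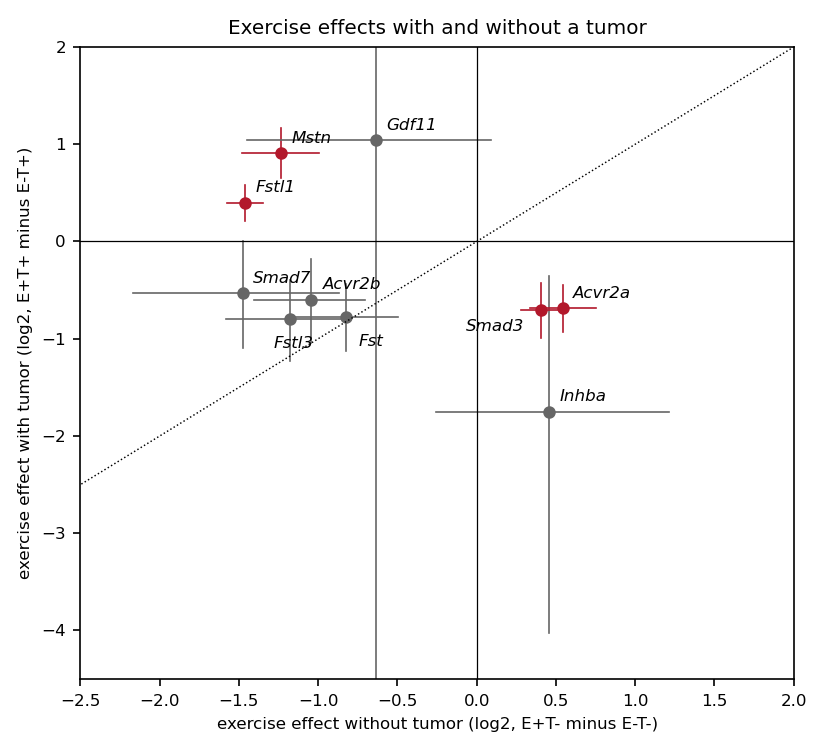
Exercise difference in tumor-bearing mice (y, log2) against that in mice without a tumor (x, log2) for the 10 genes, with 95% counting intervals, cut at the edge of the panel, and the line of equality dotted. Red points have opposite signs with both intervals apart from 0: Mstn and Fstl1 at upper left, Acvr2a and Smad3 at lower right. Gdf11 has 0 and 1 reads on the y axis comparison and an interval that spans the panel.

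The balance of ligands and inhibitors was taken within each library, where it does not depend on scaling. The summed normalized read count of Mstn, Gdf11 and Inhba over that of Fst and Fstl3 was 1.39 in normal control (1.20 to 1.60) and 1.36 in normal exercise (1.13 to 1.62), against 0.625 in cancer control (0.523 to 0.745) and 1.91 in the cancer exercise library (1.60 to 2.28). By this sum of 3 ligands, cancer control was the library with fewer ligand than inhibitor reads. That order depends on the ligands counted: with Inhbb, the gene of the activin B subunit, added to them after the data were seen, the ratio was 1.41 in normal control and 1.47 in normal exercise, against 1.21 in cancer control (1.04 to 1.40) and 2.85 in the cancer exercise library (2.41 to 3.38), so that no library had fewer ligand than inhibitor reads and the interval of cancer control reached those of both libraries without a tumor. Mstn gave between 74.6% and 98.6% of the reads of the 3 ligands, but 47.9% in cancer control once Inhbb was counted. Without the doubtful Fstl3, the ratio of Mstn to Fst was 2.21 in normal control (1.84 to 2.65) and 1.67 in normal exercise (1.34 to 2.08), against 0.980 in cancer control (0.800 to 1.20) and 3.16 in the cancer exercise library (2.56 to 3.94). The order of the libraries was the same by both ratios, although several intervals overlapped. Those of normal control and normal exercise did in both ratios. That of cancer exercise overlapped both of them in the first ratio and normal control in the ratio of Mstn to Fst.

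**Figure D4:**
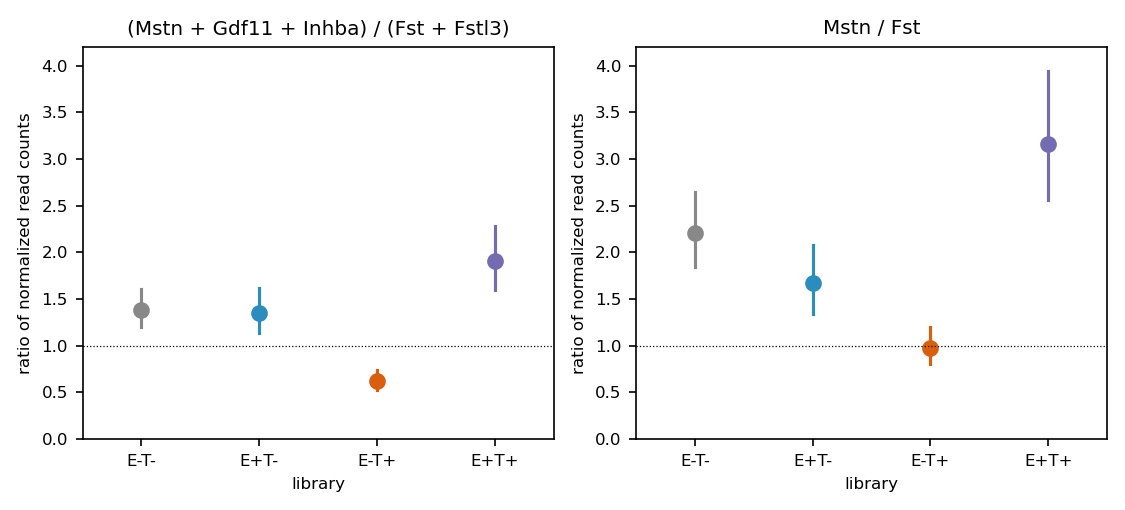
Ratio of normalized read counts (y, from 0) of ligands to inhibitors, left, and of Mstn to Fst, right, in the 4 libraries (x), with 95% Clopper-Pearson intervals of the reads. The dotted line marks equal counts. The values are lowest in cancer control (E-T+), at 0.625 and 0.980, and highest in cancer exercise (E+T+), at 1.91 and 3.16, where the interval overlaps that of normal control (E-T-) in both panels. Inhbb is not among these ligands.

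The rest of the pathway was described with 5 lists of other genes, 79 in all. Exercise without a tumor changed 10 of the 66 that met the minimum, 5 higher and 5 lower (15.2%, beside 21.5% of all genes). The tumor without exercise changed 27 of 67, 14 higher and 13 lower (40.3%, beside 45.1%). Exercise with a tumor changed 20 of 65, 6 higher and 14 lower (30.8%, beside 30.6%), and the tumor with exercise 25 of 65, 12 higher and 13 lower (38.5%, beside 30.3%). The share was below that of all genes in the first 2 comparisons, next to it with exercise in tumor-bearing mice and above it with the tumor in exercised mice.

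Among the 18 other ligands of the family, 5 had no reads in any library, Tgfb1 among them. For these, absence of the transcript and reads not counted for the gene cannot be told apart. The tumor without exercise changed 7 of the 12 that met the minimum, 2 higher and 5 lower, with a median of -0.31, beside 45.1% of all genes (20.9% higher and 24.2% lower). Inhbb, which encodes the subunit of activin B, had 9 reads in the normal control library and 26 in normal exercise, against 195 in cancer control and 181 in the cancer exercise library. It was higher with the tumor by 4.30 without exercise (3.49 to 5.60) and by 3.17 with it (2.62 to 3.87). The 2 activin subunit genes thus differed, since Inhbb was higher in both tumor libraries and Inhba, with 16 and 4 reads there, in neither. Gdf10, a growth factor related to the bone morphogenetic proteins, had 250 reads in the normal control library and 188 in normal exercise, against 15 in cancer control and 77 in the cancer exercise library. Gdf5, a bone morphogenetic protein ligand known to oppose muscle loss after denervation, had 40 reads in cancer control, 2 in cancer exercise and 0 in both libraries without a tumor. It was at least 13.4-fold higher in cancer control than in normal control.

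Among the 11 other receptors and co-receptors, exercise with a tumor changed 1 of the 10 that met the minimum, beside 30.6% of all genes, and the tumor without exercise 3 of 10, beside 45.1%. Acvr1c, the type I receptor ALK7, which is known from fat tissue, had 128 reads in the normal control library and 28 in normal exercise, against 2 in cancer control and 22 in the cancer exercise library. Its log2 difference was -2.54 with exercise alone (-3.23 to -1.99), and with the tumor alone -5.42 on the log2 scale of value plus 1 (interval of the reads -9.05 to -4.11). Of the 10 adipocyte markers, 9 were lower by 2-fold with the tumor alone, with a median of -2.05, and 6 with exercise alone, with a median of -1.10. Without Lpl their sum was lowest in cancer control, as Acvr1c was. Their part in the Acvr1c values was not tested. Tgfbr3, the co-receptor betaglycan, was higher with the tumor by 1.46 without exercise (1.32 to 1.61) and by 1.12 with it (0.97 to 1.26), with 527, 639, 1441 and 1038 reads in the order of libraries above. Acvr1, a type I receptor for bone morphogenetic proteins, differed by -1.04 with the tumor alone (-1.35 to -0.74).

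Of the 21 extracellular regulators, the tumor without exercise changed 6 of the 16 that met the minimum, 3 higher and 3 lower, beside 45.1% of all genes. Wfikkn1, a protease inhibitor related protein that binds myostatin and Gdf11, had 1 read in the normal control library and 8 in normal exercise, against 42 in cancer control and 5 in the cancer exercise library. Its difference with the tumor alone was 4.44, with an interval of the ratio of reads of 2.85 to 10.7. Cancer control held 36 reads of Grem1, an antagonist of bone morphogenetic proteins, and the other libraries 0, at least 12.1-fold higher than in normal control. Like Gdf5 and Wfikkn1, Grem1 was highest in the library in which the epidermal markers stood apart. Other genes of these lists, Inhbb among them, were highest there too. The part of epidermal cells in these values was not tested.

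The 15 other Smads and intracellular regulators leaned one way in each comparison that uses cancer control. With the tumor alone 11 of 15 were higher, though 2 by 2-fold, where 20.9% of all genes were, with a median of 0.41, beside -0.04 over all genes. With exercise in the presence of a tumor 13 of 15 were lower, 4 of them by 2-fold, where 15.1% of all genes were, with a median of -0.54, beside 0.005. Both comparisons share cancer control. Tgif1, a repressor that binds Smad2 and Smad3, had 26 reads in the normal control library and 57 in normal exercise, against 563 in cancer control and 169 in the cancer exercise library. It was higher with the tumor by 4.39 without exercise (3.88 to 5.07) and by 1.97 with it (1.54 to 2.45). Smad6, the inhibitory Smad of the bone morphogenetic protein arm, had 45, 37, 29 and 12 reads in the same order and was lower with exercise in the presence of a tumor, at -1.19 (-2.36 to -0.24). Zfyve9, a scaffold that presents Smads to the receptor, had 15 reads in the normal control library and 0 in normal exercise, against 15 in cancer control and 12 in the cancer exercise library. In normal exercise it was at least 6.56-fold lower than in normal control. Smad2, the partner of Smad3, was chosen after its values were seen and had 156, 203, 206 and 157 reads, with no 2-fold difference in any comparison, unlike Smad3.

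The list of Smad response genes held 15 genes that Smads or their signals are known to regulate, along with the muscle ubiquitin ligases that mark atrophy. The tumor changed 10 of 15 without exercise, 6 higher and 4 lower, beside 45.1% of all genes (20.9% higher and 24.2% lower). With exercise it changed 9 of 14, 6 higher and 3 lower, beside 30.3% (13.9% higher and 16.3% lower). Exercise in the presence of a tumor changed 6 of 14, 1 higher and 5 lower, beside 30.6% (15.6% higher and 15.1% lower). Cdkn1a, the cell cycle inhibitor p21, had 380 reads in the normal control library and 336 in normal exercise, against 8029 in cancer control and 3386 in the cancer exercise library. Fbxo32, the ubiquitin ligase atrogin-1, had 3361, 1002, 34784 and 16715 reads in the same order. Its log2 difference was -2.14 with exercise alone (-2.24 to -2.04), 3.38 with the tumor alone (3.33 to 3.43) and -1.04 with exercise in tumor-bearing mice (-1.07 to -1.01). Trim63, the ubiquitin ligase MuRF1, was a candidate that the study chose on these libraries, so its differences are not independent evidence. They were 3.98 and 4.52 with the tumor, without and with exercise. These ligases were highest in cancer control and next in cancer exercise. Mstn was highest in normal control and Inhba in normal exercise. Inhbb, like the ligases, was highest in cancer control (209) and next in cancer exercise (196), although the libraries without a tumor came in the opposite order. The part of any of these ligands in the ligase values was not tested.

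**Figure D5:**
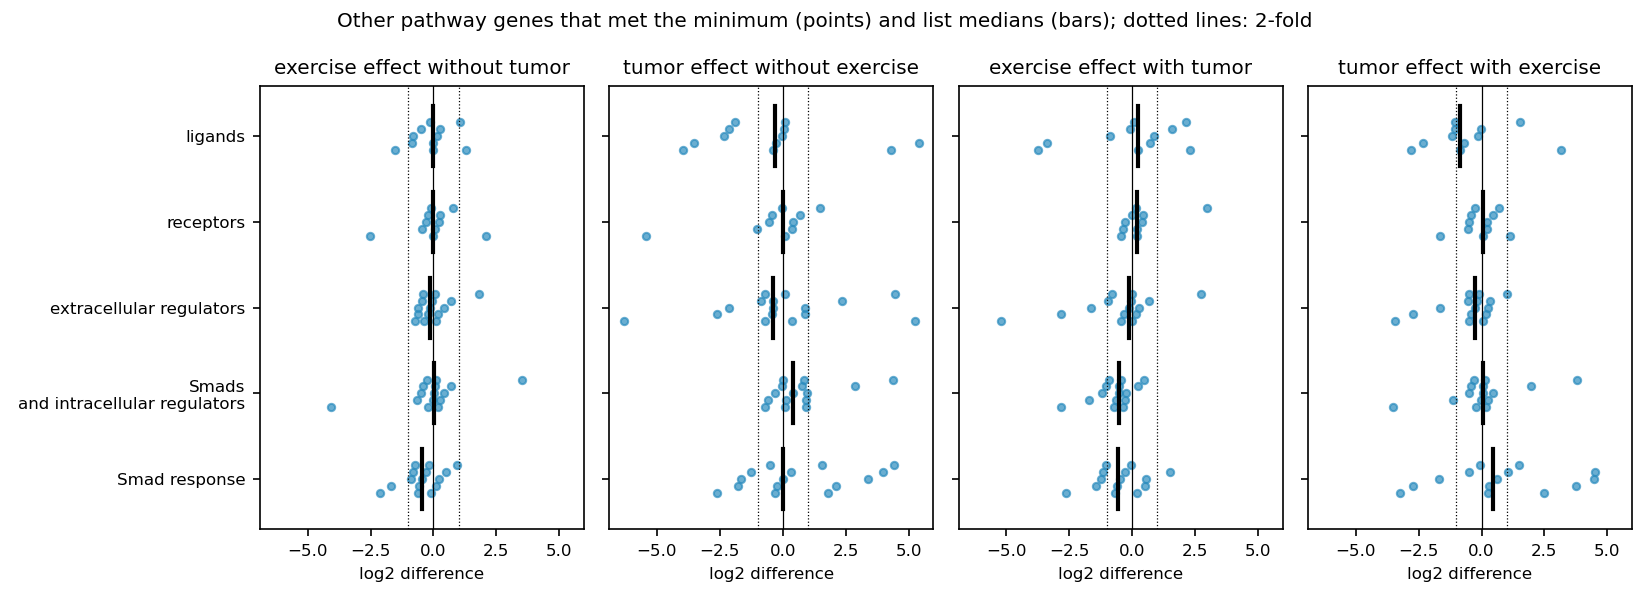
Log2 difference (x) of the other pathway genes that met the minimum, by list (y), in the 4 comparisons. Points are genes, black bars list medians and dotted lines 2-fold. The Smad and intracellular regulator list has medians of 0.41 with the tumor alone and -0.54 with exercise in the presence of a tumor.

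The genes whose pattern was most like that of Mstn were sought among 8108 others whose normalized read counts averaged 100 or more. The measure was the root-mean-square difference of the log2 values, centered on each gene's mean, over the 4 libraries, for which the median over those genes was 0.661. The closest were Timp4 (0.0933), Sod3 (0.0996), Ace (0.129), Ccndbp1 (0.135) and Prmt10 (0.149). Timp4, an inhibitor of matrix proteases, had normalized read counts of 1613, 804.6, 813 and 1523 in the order of libraries above. With 4 libraries such a likeness describes an order of levels and no more.

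In levels, Fstl1 was the most abundant of the group in normal control, cancer control and cancer exercise, and Smad3 in normal exercise, at 1154. Gdf11 or Inhba had the lowest value in each library. The intervals of the lowest pair overlapped in normal control (Inhba and Gdf11), in normal exercise (Gdf11 and Smad7) and in cancer exercise (Gdf11 and Inhba), so that Gdf11 was below the others by more than counting error in cancer control. Among genes with reads in a library, Fstl1 in normal control stood at the 95.1 percentile, Mstn between 57.6 and 75.4, Fst between 46.4 and 61.0 and Smad7 between 24.1 and 41.8. In the middle of the order, Fst and Acvr2b had the same 179 reads in normal control, and Fst, Fstl3 and Acvr2b had overlapping intervals there. Above Mstn stood Fstl1 and Smad3 in normal control, Smad3, Fstl1 and Acvr2a in normal exercise, Fstl1, Acvr2a, Smad3 and Fst in cancer control, and Fstl1 alone in cancer exercise.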

How the data were processed

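RNA of the gastrocnemius was sequenced with the QuantSeq 3′ kit. The submitters' processing notes and the methods state that reads were aligned with Bowtie2 to mm10 and counted per gene with bedtools coverage. The authors normalized the read counts by edgeR's quantile method, added 1 and deposited the log2. The handling of strand, duplicates and reads of several genes is not given in the sources used here. Values were read as log2, and a negative binomial quantile adjustment with 1 scaling factor per library and a dispersion of 0.339 was fitted. It returned whole reads for 100% of the values within 0.0006 on the log2 scale, although for Fstl1 and Smad3 a count may be off by 1 read. The steps were tested on simulated data.

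Differences are those of the deposited log2 values (pseudocount of 1), so that fold changes of low genes come out too small. With 1 library per group no p-value is given. For each log2 ratio a 95% Clopper-Pearson interval was computed (SciPy 1.17.1) from both libraries' reads and the fitted scaling, and differences of log2 ratios combine their arms. They cover counting error only. Genes at 0 reads were set to a floor of 3 reads for bounds. Coordinates are from GENCODE M21 on GRCm38. Genes named are the 10 members, up to 3 genes per pathway list with the largest absolute difference among those changed at least once and reaching 16 normalized reads in a library, and the 5 genes most like Mstn. A pathway gene that this rule names is not reported here. Members and lists were chosen with earlier results of these data known. Alternatives covered 3 scalings (median-of-ratios, TMM, total count), a pseudocount of 0 or 4, other minimums and other fold thresholds.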

Additional observations from a re-analysis of the deposited data

Results flagged for a closer look

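The exercise differences with and without a tumor had opposite signs, with both counting intervals apart from 0, in 4 of the 10 genes. The difference between these effects was not tested, because each rests on 1 pair of libraries. It was 2.14 on the log2 scale for Mstn, 1.86 for Fstl1, -1.23 for Acvr2a and -1.11 for Smad3. As the design crosses 2 factors, each value is also the tumor difference with exercise minus that without it. Opposite signs alone were found for 51.6% of the 12055 genes whose normalized read counts averaged 16 or more. The share that also meets the interval condition was not computed, so the count of 4 has no background beside it. Reads of Acvr2a may include some of Orc4, as given above.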

How the results depend on the processing

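No paired analysis was possible because each group had 1 library. Over 200 member differences recomputed under other scalings and pseudocounts, no called difference changed sign. Total count scaling moved the median difference of all genes to 0.15 with exercise alone and to -0.19 with the tumor in exercised mice. It ended 4 member calls and added 1, and gave 1.63 for the difference between the exercise effects of Fstl1. Pseudocount 4 took Smad7 to 0.98 with the tumor in exercised mice. For the members, exercise with a tumor changed 2 without a minimum and 7 at 1.5-fold. At 4-fold the members changed were 0 with exercise alone, 2 with the tumor alone, 0 with exercise in tumor-bearing mice and 3 with the tumor in exercised mice. For the pathway lists, exercise alone changed 5 genes at a minimum of 16, 6 with the minimum of 4 in both libraries, 24 at 1.5-fold and 5 at 4-fold. Exercise with a tumor changed 12 with the minimum in both libraries, 31 at 1.5-fold and 10 at 4-fold, and the tumor with exercise 12 at 4-fold. These follow from the stricter or looser rule itself. With Fstl1 added to the inhibitors, the ligand to inhibitor ratio was 0.198 in normal control and 0.256 in normal exercise, against 0.272 in cancer control and 0.482 in the cancer exercise library, so that cancer control was no longer lowest. With Inhbb added to the ligands it was 1.21 in cancer control and 2.85 in cancer exercise. Leaving out Fstl3 or Lpl and adding Inhbb were chosen after seeing the data. Differences between animals could not be assessed at any setting.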
